A study of Mus musculus with 24 samples.

Results

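Toll-like receptors are the family of pattern recognition receptors with which dendritic cells sense microbial lipids, proteins and nucleic acids. Their genes were taken by name from the deposited table of counts per gene: Tlr1, Tlr2, Tlr3, Tlr4, Tlr6, Tlr7, Tlr8, Tlr9 and Tlr13 were the 9 members described here, of 38887 genes in all. Each of the 9 was matched by its Ensembl identifier, and each passed the filter on low counts, as did 14188 genes in all. The samples were RNA-seq libraries of dendritic cells grown from mouse bone marrow, labelled knockout (KO) or wild type (WT) for IRE1α and treated with zymosan, with LPS or not at all. The groups were KO with zymosan, WT with zymosan, KO with LPS, WT with LPS, KO untreated and WT untreated, with 4 replicates each and 24 samples in all. The labels used here give no allele, Cre line, dose, time of stimulation, age or sex of the mice, and they do not say whether the replicates were separate mice or cultures. The p-values below rest on how far these samples spread, and some of that spread may be technical.

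As background, a Toll-like receptor is a transmembrane protein whose leucine-rich repeats bind the microbial ligand and whose cytoplasmic TIR domain recruits the adaptors MyD88 or TRIF, which lead to NF-κB, AP-1 and interferon regulatory factors. TLR1, TLR2, TLR4 and TLR6 act at the cell surface, where TLR2 pairs with TLR1 for triacylated lipopeptides and with TLR6 for diacylated lipopeptides and zymosan, and TLR4 binds LPS with MD-2 and CD14. TLR3, TLR7, TLR8, TLR9 and TLR13 act in endosomes on nucleic acids and depend on the transport protein UNC93B1. Zymosan, a yeast cell wall preparation, is also bound by dectin-1. IRE1α, encoded by Ern1, is a sensor of unfolded protein in the endoplasmic reticulum, where these receptors are folded.

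Total counts per sample ranged between 32223256 and 46927434. The 8 dendritic cell markers, such as Itgax, H2-Ab1 and Cd74, were detected in every group and summed to between 4672 and 7226 CPM per sample. CPM is the count scaled to the library total, with that total multiplied by a TMM scaling factor. Flt3 was low, at 0.881 to 0.972 CPM in KO untreated and 1.90 to 2.21 CPM in WT untreated samples. Ern1 mRNA was not lower in the samples labelled KO, with 48.2 to 54.6 CPM in KO untreated against 40.2 to 43.3 CPM in WT untreated samples. Counts of a whole gene do not show whether an exon is deleted, so the groups are called KO and WT as labelled. In all groups but WT with LPS, replicates 1 and 2 resembled each other more than either resembled replicates 3 and 4, and likewise replicates 3 and 4: the chi-square per gene between samples was 1.89 to 7.75 in these 12 pairs over all 6 groups and 6.35 to 23.2 in the other 24 pairs of the same group. In WT with LPS replicates 1 and 2 were closest, at 3.49, while replicates 3 and 4 were 7.75 apart, farther than replicates 2 and 3 at 6.35. Calls that were lost when replicates 1 and 2, and replicates 3 and 4, were summed to give 2 values per group are therefore named beside each comparison.

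Among the receptors, Tlr2 had the highest level in all 6 groups, and the lowest was Tlr3 in untreated cells and Tlr9 in stimulated cells. Levels of different genes are compared as CPM per kilobase of merged exons. Tlr2 averaged 125.5 ± 7.40 CPM per kilobase in KO and 196 ± 6.86 in WT cells with zymosan, 116 ± 11.03 in KO and 181 ± 10.03 in WT cells with LPS, and 57.8 ± 7.30 in KO and 73.0 ± 4.02 in WT untreated cells (SD, n = 4 each). In untreated cells of both labels the order was Tlr2, Tlr13, Tlr4, Tlr7, Tlr8, Tlr6, Tlr1, Tlr9 and Tlr3, and among neighbours in this order only Tlr7 and Tlr8 in KO samples overlapped. The highest mean level was 88.1 times the lowest in KO untreated cells and 99.5 times the lowest in WT untreated cells.

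**Figure D1:**
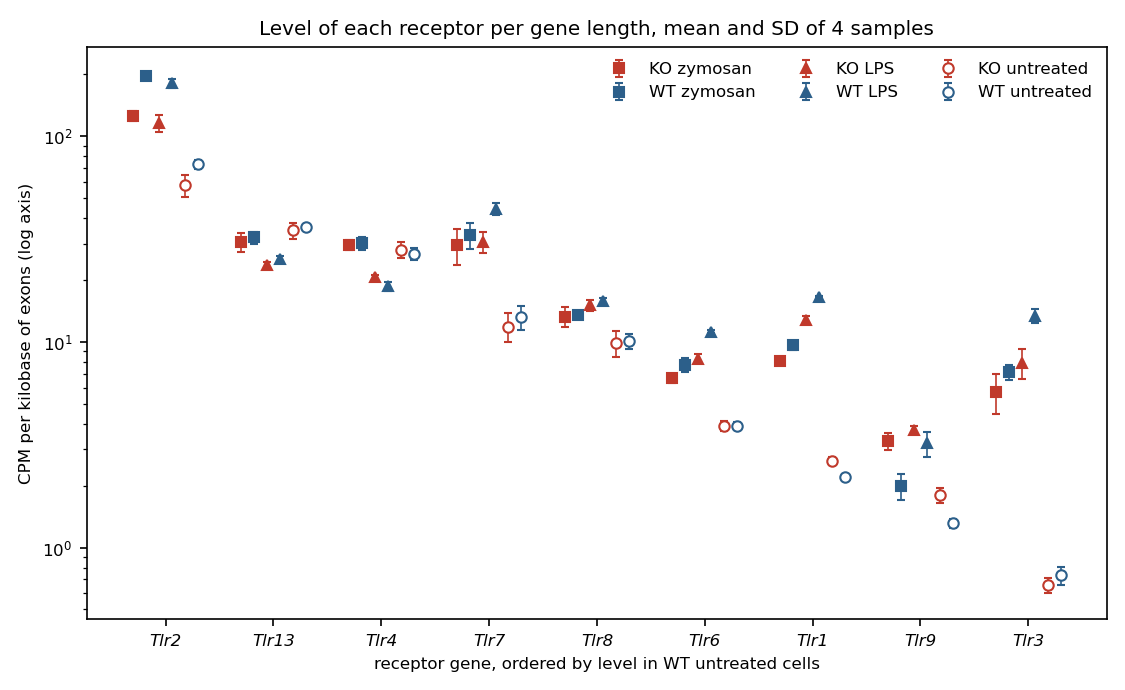
Mean level of each receptor in CPM per kilobase of merged exons (log axis) in the 6 groups, with error bars for the SD of 4 samples. Tlr2 lies above the other receptors in every group, and Tlr3 has the lowest level in untreated cells, 0.656 in KO and 0.734 in WT cells.

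Stimulation changed the order below Tlr2. Tlr7 ranked 4 in untreated cells and 2 in WT cells with either stimulus and in KO cells with LPS, while Tlr3 was the lowest in untreated cells and Tlr9 was the lowest in stimulated cells. With zymosan, the samples of Tlr13, Tlr4 and Tlr7 overlapped their neighbours in the order in both labels, as did those of Tlr6 and Tlr3. With LPS the 8 steps of the order were free of overlap in WT cells, and in KO cells the samples of Tlr6 and Tlr3 overlapped. Dividing by the length of the longest transcript in place of merged exons moved the rank of 5 receptors in WT cells with zymosan, of 4 in KO cells with each stimulus and of 2 in KO untreated cells, and Tlr2 stayed first.

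Summed over the 9 receptors, the level per kilobase was 252 ± 21 in KO and 332 ± 9.27 in WT cells with zymosan, 239 ± 18.7 in KO and 329.5 ± 14.4 in WT cells with LPS, and 151 ± 16.1 in KO and 167 ± 7.32 in WT untreated cells. Tlr2 alone made up 49.8% of this sum in KO and 59.2% in WT cells with zymosan, 48.6% in KO and 54.9% in WT cells with LPS, and 38.1% in KO and 43.6% in WT untreated cells. The 5 endosomal receptors together made up 32.5% in KO and 26.5% in WT cells with zymosan, 33.9% in KO and 30.96% in WT cells with LPS, and 39.0% in KO and 36.7% in WT untreated cells.

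Promoter sequence was looked up because most receptors moved together with the stimuli, and the factors after the receptors have known DNA motifs. RefSeq windows of 300 bases (250 before and 50 after an annotated start, GRCm38.p6) were found for 7 of the 9 genes, all but Tlr4 and Tlr7, with 9 windows in all. Both strands were searched for the NF-κB consensus, found in 8.46% of all 32851 windows of this length, the AP-1 motif TGANTCA (7.81%), the ISRE core of interferon regulatory factors (GAAA, any 2 bases, GAAA; 3.44%), the ETS-IRF composite (GGAA, any 2 bases, GAAA; 2.72%) and the UPRE core TGACGTG of the XBP1 and ATF6 pathway (2.01%). Matches lay in the windows of Tlr2, Tlr3, Tlr6 and Tlr9, and the windows of Tlr1, Tlr8 and Tlr13 held none of the 5 motifs. The 4 windows with a match are printed 5′ to 3′ on the gene's strand, with the matched bases in capitals. Tlr2 (chr3:83841559-83841858, minus strand) held NF-κB matches at -173 to -164 and, overlapping it, at -172 to -163, and the third at -8 to 1, counted from the annotated start, whose own base is 0. Tlr3 (chr8:45410331-45410630, minus strand) held an NF-κB match at -211 to -202. That whole window lies inside the annotated Tlr3 gene, whose 5′ end is at 45411080, and inside the antisense gene Gm45542. Tlr6 (chr5:64959117-64959416, minus strand) held overlapping ISRE core matches on the other strand at -116 to -107 and -110 to -101, and Tlr9 (chr9:106222348-106222647, plus strand) an AP-1 match at -58 to -52. The other Tlr6 window (chr5:64959999-64960298), which covers the 5′ end of the annotated gene, held no match. A match describes letters in the window and not binding of a factor.
Tlr2: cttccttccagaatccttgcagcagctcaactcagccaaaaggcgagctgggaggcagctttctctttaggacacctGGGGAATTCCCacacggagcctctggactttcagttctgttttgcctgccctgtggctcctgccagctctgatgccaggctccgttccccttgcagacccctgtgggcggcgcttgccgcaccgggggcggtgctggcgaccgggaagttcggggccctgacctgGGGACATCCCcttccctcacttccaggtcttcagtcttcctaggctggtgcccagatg
Tlr3: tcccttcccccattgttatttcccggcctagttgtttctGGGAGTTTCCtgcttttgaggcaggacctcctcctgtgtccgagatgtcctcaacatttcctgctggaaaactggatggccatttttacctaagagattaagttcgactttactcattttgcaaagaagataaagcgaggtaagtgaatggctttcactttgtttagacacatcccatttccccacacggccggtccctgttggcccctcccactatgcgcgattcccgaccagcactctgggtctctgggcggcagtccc
Tlr6: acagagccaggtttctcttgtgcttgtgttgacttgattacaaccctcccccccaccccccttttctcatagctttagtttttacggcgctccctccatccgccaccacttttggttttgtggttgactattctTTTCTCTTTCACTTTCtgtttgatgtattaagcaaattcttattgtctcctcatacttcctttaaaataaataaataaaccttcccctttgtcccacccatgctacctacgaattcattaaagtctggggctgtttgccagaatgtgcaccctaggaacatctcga
Tlr9: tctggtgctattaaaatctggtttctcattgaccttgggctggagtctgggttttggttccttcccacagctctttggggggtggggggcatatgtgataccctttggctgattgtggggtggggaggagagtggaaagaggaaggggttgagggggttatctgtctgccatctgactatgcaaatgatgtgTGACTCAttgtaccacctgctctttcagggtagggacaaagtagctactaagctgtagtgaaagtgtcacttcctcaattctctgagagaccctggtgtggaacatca

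The first comparisons asked which receptor mRNAs dendritic cells change after zymosan or LPS. In WT cells 8 receptors rose and 1 fell with zymosan, and 7 rose and 2 fell with LPS (edgeR quasi-likelihood test, Benjamini-Hochberg adjusted p under 0.05 over all 14188 genes, as in every call below). Of all genes tested, 70.2% passed with zymosan (34.3% higher, 35.9% lower) and 75.6% with LPS (35.9% higher, 39.7% lower), so being called is common here and the sizes carry the description. The median log2 fold change of the 9 receptors was 0.99 with zymosan and 1.31 with LPS, against -0.01 and -0.04 over all genes. In KO cells 7 receptors rose and 1 fell with zymosan and 7 rose and 2 fell with LPS, where 66.8% (31.6% higher, 35.2% lower) and 71.8% (34.4% higher, 37.4% lower) of all genes passed, and the receptors' medians were 0.87 and 1.05, against -0.03 and -0.02 over all genes. Tlr3 and Tlr1 rose the most, Tlr2, Tlr6, Tlr7, Tlr8 and Tlr9 rose less, and Tlr13 and, with LPS, Tlr4 fell. The stimulated and untreated samples did not overlap for 7 receptors with zymosan and 9 with LPS in WT cells, where this held for 64% and 71.3% of all genes, and for 7 and 9 in KO cells, where it held for 60.4% and 65.3%. In bulk samples a change in RNA per cell and a change in the share of cells that make the RNA cannot be told apart.

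**Figure D2:**
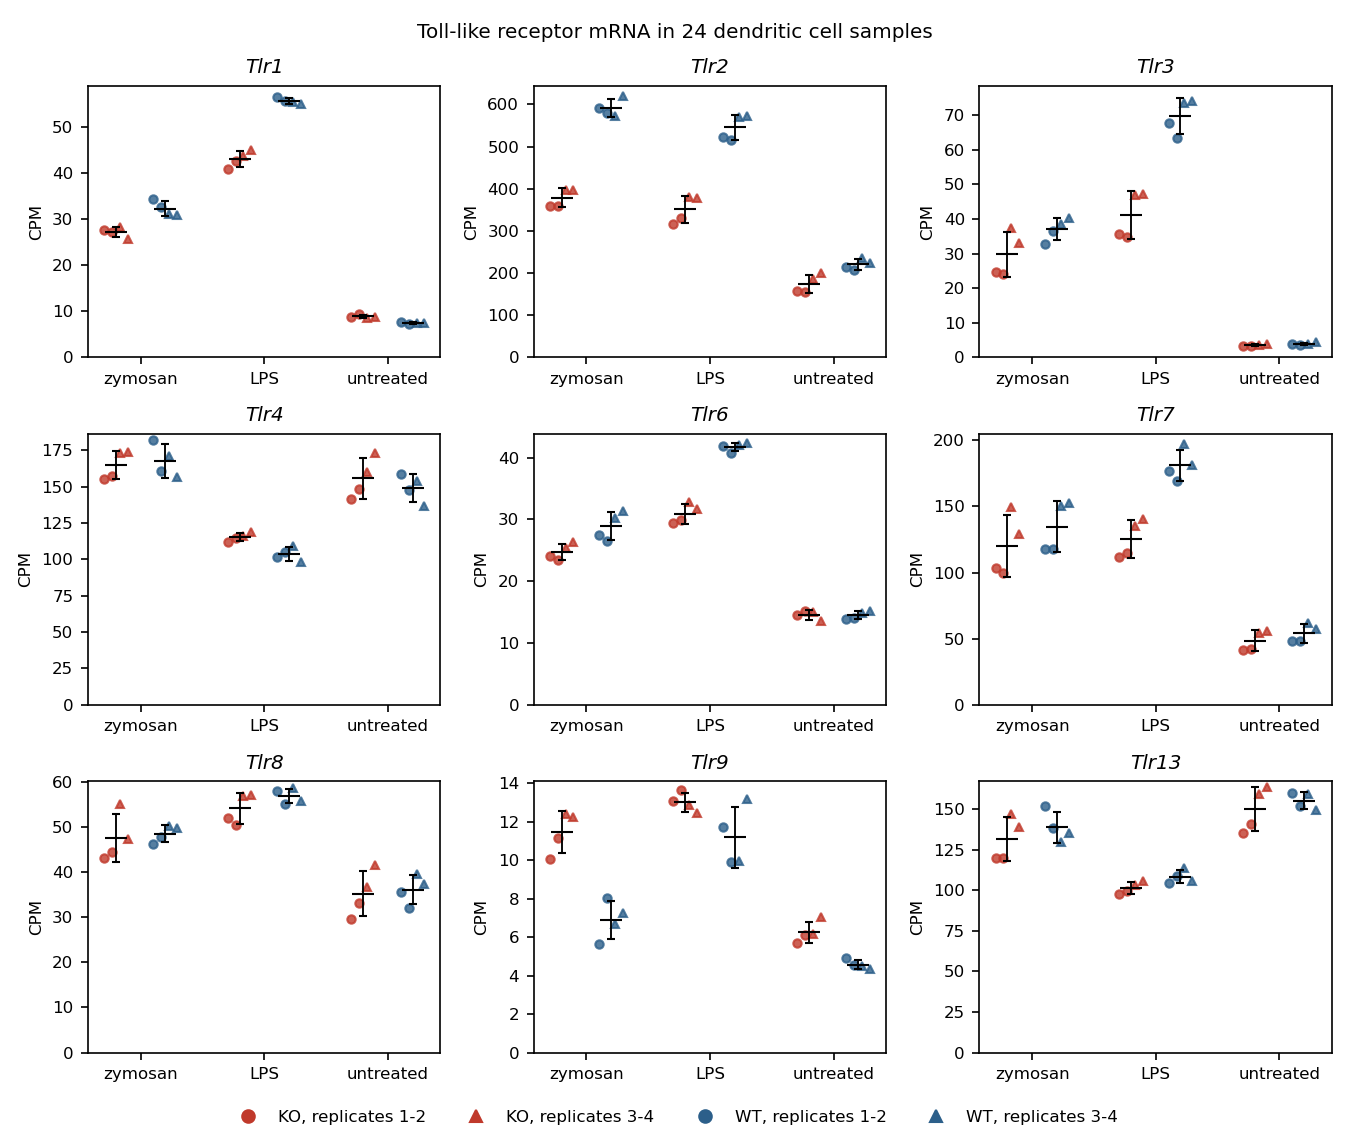
CPM of each receptor in the 24 samples, with KO samples left of WT samples in each condition, circles for replicates 1 and 2 and triangles for replicates 3 and 4, and lines and bars for the mean and SD of 4 samples. Tlr3 lies between 3.15 and 4.33 CPM in all 8 untreated samples and between 23.9 and 74.3 CPM in the 16 stimulated ones.

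Tlr2 (ENSMUSG00000027995, chromosome 3, 83836272 to 83841767, minus strand, GRCm38), the shared partner of the TLR1 and TLR6 complexes, had 592, 581, 573 and 620.5 CPM in WT cells with zymosan, against 214, 207, 235 and 224.5 CPM in WT untreated cells. With LPS it had 523, 516, 571 and 572 CPM in WT cells. The stimulated samples lay above every untreated sample. The fold was 2.69 with zymosan (log2 1.43 ± 0.07 SE, adjusted p = 7.42e-15), and the log2 change was 1.31 ± 0.07 with LPS (adjusted p = 2.15e-14). In KO cells the log2 changes were 1.12 ± 0.07 with zymosan and 1.01 ± 0.07 with LPS, and both passed the test.

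Tlr1 (ENSMUSG00000044827, chromosome 5, 64924679 to 64933563, minus strand), whose product pairs with TLR2 for triacylated lipopeptides, had 34.3, 32.5, 31.1 and 30.8 CPM in WT cells with zymosan, against 7.68, 7.11, 7.501 and 7.36 CPM in WT untreated cells. With LPS its level was 56.4, 55.6, 55.3 and 54.9 CPM in WT cells. No 2 of the 6 groups overlapped, and in order of level they were WT with LPS, KO with LPS, WT with zymosan, KO with zymosan, KO untreated and WT untreated. The change in WT cells was 4.34-fold with zymosan (log2 2.12 ± 0.05, adjusted p = 5.61e-22) and 7.49-fold with LPS (log2 2.91 ± 0.05, adjusted p = 7.76e-25). In KO cells the log2 changes were 1.62 ± 0.05 and 2.28 ± 0.05.

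Tlr6 (ENSMUSG00000051498, chromosome 5, 64952031 to 64960097, minus strand), the TLR2 partner for diacylated lipopeptides and the neighbour of Tlr1 on the chromosome, had 27.5, 26.5, 30.2 and 31.4 CPM in WT cells with zymosan, against 13.9, 14.1, 14.9 and 15.2 CPM in WT untreated cells. With LPS it had 41.9, 40.8, 42.1 and 42.3 CPM in WT cells. Both stimulated groups lay above all untreated samples. The log2 change in WT cells was 0.99 ± 0.06 with zymosan (adjusted p = 2.85e-14) and 1.52 ± 0.05 with LPS (adjusted p = 2.07e-18), and in KO cells 0.77 ± 0.06 and 1.09 ± 0.05. Tlr1 and Tlr6 share 454 stretches of 50 bases in their transcripts, 13.6% of those in Tlr1 and 12.3% of those in Tlr6, so their counts depend in part on how reads that fit both were shared out. No other pair of the 9 receptors shares such a stretch.

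Tlr4 (ENSMUSG00000039005, chromosome 4, 66827584 to 66930284, plus strand), the LPS receptor, had 102, 105, 109 and 98.1 CPM in WT cells with LPS, against 159, 148, 154 and 137 CPM in WT untreated cells. With zymosan it had 182, 161, 171 and 156 CPM in WT cells, which overlapped the untreated samples. In order of level the groups with zymosan and without treatment overlapped their neighbours, while both LPS groups lay below all others and KO with LPS above WT with LPS. Tlr4 fell with LPS by 0.53 ± 0.06 on the log2 scale in WT cells (adjusted p = 1.98e-08) and by 0.43 ± 0.06 in KO cells (adjusted p = 5.72e-07). With zymosan the log2 change was 0.17 ± 0.06 in WT cells (adjusted p = 0.0162) and 0.08 ± 0.06 in KO cells (adjusted p = 0.241). The TMM factors that scale the library totals were 1.144 to 1.189 in untreated and 0.906 to 0.9506 in zymosan samples. The sign of these small changes therefore depends on that scaling, and unscaled totals were not tested. The zymosan call in WT cells was lost without WT untreated replicate 4 (adjusted p = 0.0753), without WT zymosan replicate 1 (adjusted p = 0.0772) and with summed replicates (adjusted p = 0.087).

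Among the endosomal receptors, Tlr3 (ENSMUSG00000031639, chromosome 8, 45395665 to 45411080, minus strand), the receptor for viral RNA duplexes that signals through TRIF, had 67.9, 63.4, 73.6 and 74.3 CPM in WT cells with LPS and 32.9, 36.4, 38.5 and 40.4 CPM in WT cells with zymosan, against 3.67, 3.41, 3.88 and 4.33 CPM in WT untreated cells. Its fold changes were the largest of the 9 receptors, 9.68-fold with zymosan (log2 3.27 ± 0.14, adjusted p = 1.29e-16) and 18.2-fold with LPS (log2 4.19 ± 0.14, adjusted p = 4.07e-19) in WT cells. In KO cells the changes were 8.68-fold with zymosan (adjusted p = 7.38e-16) and 12.03-fold with LPS (adjusted p = 1.77e-17). The untreated samples of both labels overlapped each other and lay far below every stimulated sample. Antisense gene Gm45542 (45410063 to 45410760) lies inside Tlr3, near its 5′ end, in the annotation. Gm45542 is not among the genes of the deposited table, so it was not analysed here.

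Tlr7 (ENSMUSG00000044583, chromosome X, 167304929 to 167330558, minus strand), a receptor for single-stranded RNA, ranged between 118 and 153 CPM with zymosan and between 169 and 197 CPM with LPS in WT cells, against 48.0 to 62.0 CPM in WT untreated cells. Its log2 change in WT cells was 1.32 ± 0.13 with zymosan (adjusted p = 1.31e-09) and 1.75 ± 0.13 with LPS (adjusted p = 4.96e-12), and in KO cells 1.31 ± 0.13 and 1.37 ± 0.13. Its neighbour Tlr8 (ENSMUSG00000040522, chromosome X, 167242696 to 167264329, minus strand), which encodes a close relative of TLR7, ranged between 46.2 and 50.4 CPM with zymosan and between 55.3 and 58.7 CPM with LPS in WT cells, against 32.0 to 39.5 CPM in WT untreated cells. Tlr8 rose less than Tlr7, with log2 changes of 0.42 ± 0.08 with zymosan and 0.66 ± 0.08 with LPS in WT cells, and 0.43 ± 0.08 and 0.62 ± 0.08 in KO cells, all past the threshold.

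Tlr9 (ENSMUSG00000045322, chromosome 9, 106222598 to 106226883, plus strand), the receptor for unmethylated CpG DNA, had 5.66, 8.01, 6.68 and 7.24 CPM in WT cells with zymosan and 11.7, 9.90, 9.94 and 13.2 CPM in WT cells with LPS, against 4.89, 4.57, 4.48 and 4.33 CPM in WT untreated cells. Both stimulated groups lay above the untreated one, at a low level throughout. The log2 change in WT cells was 0.60 ± 0.10 with zymosan (adjusted p = 1.26e-05) and 1.29 ± 0.10 with LPS (adjusted p = 1.12e-11), and in KO cells 0.87 ± 0.10 and 1.05 ± 0.09.

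Tlr13 (ENSMUSG00000033777, chromosome X, 106143204 to 106160493, plus strand), a mouse receptor for bacterial ribosomal RNA, ranged between 130 and 152 CPM with zymosan and between 105 and 114 CPM with LPS in WT cells, against 149.5 to 160.2 CPM in WT untreated cells. It fell with LPS by 0.52 ± 0.06 on the log2 scale in WT cells (adjusted p = 8.44e-08) and by 0.56 ± 0.06 in KO cells (adjusted p = 2.47e-08), and neither label's groups overlapped. With zymosan it fell by 0.16 ± 0.06 in WT cells (adjusted p = 0.0272) and by 0.19 ± 0.06 in KO cells (adjusted p = 0.0122), and the groups overlapped. Both zymosan calls were lost with summed replicates (adjusted p = 0.167 in WT and 0.107 in KO cells). Leaving out WT untreated replicate 1 or 3 or WT zymosan replicate 3 or 4 also ended the WT call, with adjusted p between 0.0638 and 0.0968, and leaving out KO untreated replicate 4 or KO zymosan replicate 1 or 2 ended the KO call, with adjusted p between 0.0602 and 0.0613.

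**Figure D3:**
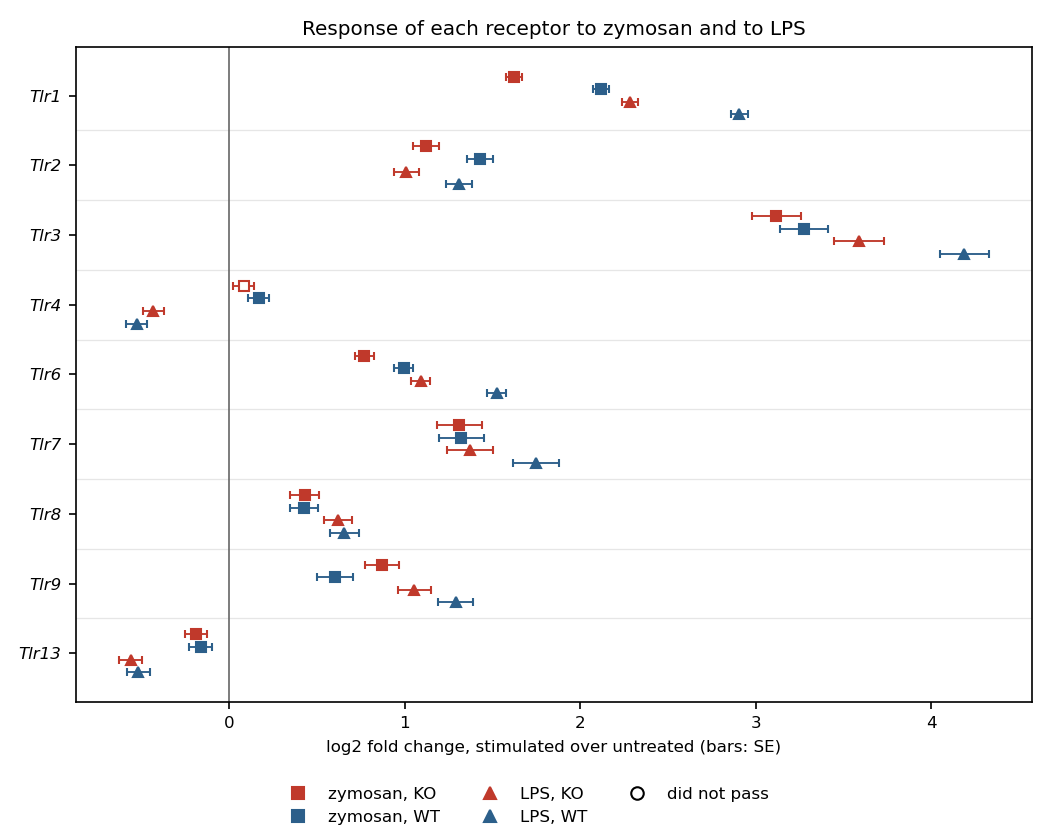
Log2 fold change of each receptor with zymosan (squares) and LPS (triangles) over untreated cells of the same label, with bars for the SE and an open symbol where the test was not passed. Tlr3 has the largest change, up to 4.19 with LPS in WT cells, and Tlr4 and Tlr13 lie below 0 with LPS.

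The stimuli were then compared with each other. In WT cells 2 receptors, Tlr4 and Tlr13, were higher with zymosan than with LPS, and 6 were lower, where 46.4% of all genes passed (24.5% higher, 21.9% lower). Tlr4 was higher by 0.69 ± 0.06 on the log2 scale (adjusted p = 1.41e-09) and Tlr13 by 0.36 ± 0.07 (adjusted p = 7.21e-05). Tlr3 was lower with zymosan, with a log2 difference of -0.91 ± 0.11 (adjusted p = 3.88e-07), as were Tlr1 at -0.79 ± 0.04 (adjusted p = 3.58e-13), Tlr9 at -0.69 ± 0.10 (adjusted p = 2.43e-06) and Tlr6 at -0.53 ± 0.05 (adjusted p = 1.2e-08). The differences of Tlr7 (-0.43 ± 0.12, adjusted p = 0.0067) and Tlr8 (-0.23 ± 0.08, adjusted p = 0.0225) were lost with summed replicates, with adjusted p = 0.109 and 0.154. That of Tlr8 was also lost without WT zymosan replicate 1 or WT LPS replicate 3 (adjusted p = 0.0625 and 0.0551). For Tlr2, which both stimuli raised, the difference of 0.12 had a 95% interval of -0.03 to 0.27 (adjusted p = 0.2). The samples of the 2 stimuli did not overlap for any of the 9 receptors in WT cells, where this held for 42.8% of all genes.

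In KO cells Tlr4 (log2 difference 0.51 ± 0.06) and Tlr13 (0.37 ± 0.07) were again higher with zymosan and Tlr1 (-0.66 ± 0.04), Tlr3 (-0.47 ± 0.12) and Tlr6 (-0.32 ± 0.05) were lower, 5 receptors in all, where 42.7% of all genes passed (22.7% higher, 20% lower). The samples of both stimuli did not overlap for 5 receptors, and for 38.8% of all genes. Tlr2, Tlr7, Tlr8 and Tlr9 did not pass, and their 95% intervals were -0.04 to 0.26, -0.32 to 0.20, -0.36 to -0.02 and -0.38 to 0.00. The call of Tlr3 was lost with summed replicates (adjusted p = 0.067).

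The next question, from the design, was whether receptor mRNA differed between samples labelled KO and WT. In untreated cells Tlr2 was lower and Tlr1 and Tlr9 were higher in KO samples, 3 receptors where 9.95% of all genes passed (4.31% higher, 5.64% lower). With zymosan Tlr1, Tlr2, Tlr3 and Tlr6 were lower and Tlr9 was higher, 5 receptors where 22.1% of all genes passed (10.6% higher, 11.4% lower). With LPS Tlr1, Tlr2, Tlr3, Tlr6 and Tlr7 were lower and none was higher, 5 receptors where 33.9% of all genes passed (15.6% higher, 18.2% lower). KO and WT samples did not overlap for 3 receptors untreated, 4 with zymosan and 6 with LPS, and for 14.5%, 20.8% and 34.4% of all genes. The median log2 difference of the 9 receptors was -0.04 untreated, -0.16 with zymosan and -0.37 with LPS, against 0.00, -0.00 and 0.01 over all genes. The largest single differences were those of Tlr3 with LPS (1.70-fold lower in KO samples), Tlr9 with zymosan (1.65-fold higher) and Tlr2 with zymosan and with LPS (1.56-fold lower in each).

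**Figure D4:**
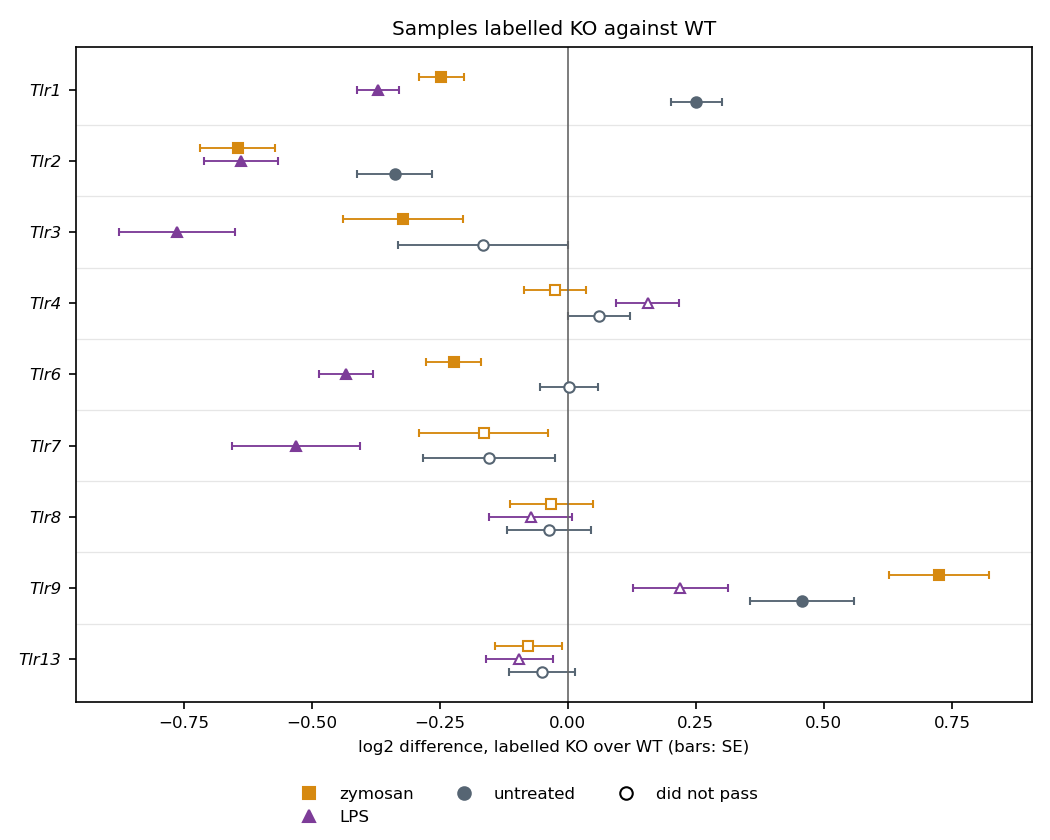
Log2 difference of samples labelled KO over WT for each receptor with zymosan (squares), with LPS (triangles) and untreated (circles), with bars for the SE and open symbols where the test was not passed. Tlr2 lies below 0 in all 3 conditions, Tlr9 above 0 in all 3, and Tlr1 lies above 0 in untreated and below 0 in stimulated cells.

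Tlr2 had 359, 359, 398 and 398 CPM in KO cells with zymosan, 315, 329, 379.7 and 378 CPM in KO cells with LPS and 158, 154, 186 and 199 CPM in KO untreated cells. In each condition every KO sample lay below every WT sample. The log2 difference was -0.64 ± 0.07 with zymosan (adjusted p = 3.71e-07), -0.64 ± 0.07 with LPS (adjusted p = 3.16e-07) and -0.34 ± 0.07 untreated (adjusted p = 0.00252). Among replicates 1 and 2 alone the difference was -0.71 with zymosan, -0.69 with LPS and -0.43 untreated, and among replicates 3 and 4 it was -0.58, -0.59 and -0.25. With summed replicates the untreated difference did not pass (adjusted p = 0.213).

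Tlr1 had 27.5, 27.2, 28.2 and 25.6 CPM in KO cells with zymosan, 40.8, 42.6, 43.6 and 44.8 CPM in KO cells with LPS and 8.62, 9.42, 8.59 and 8.63 CPM in KO untreated cells. The direction turned between conditions: KO samples lay below all WT samples with either stimulus and above all WT samples when untreated. The log2 difference was -0.25 ± 0.04 with zymosan (adjusted p = 0.000145), -0.37 ± 0.04 with LPS (adjusted p = 2.15e-07) and 0.25 ± 0.05 untreated (adjusted p = 0.00102). The untreated difference was lost with summed replicates (adjusted p = 0.0892).

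Tlr6 was lower in KO samples with LPS, which had 29.4, 29.9, 32.9 and 31.6 CPM, below all 4 WT samples (log2 difference -0.43 ± 0.05, adjusted p = 8.32e-07). With zymosan it had 24.1, 23.4, 25.3 and 26.3 CPM in KO samples and the difference was -0.22 ± 0.05 (adjusted p = 0.00398), a call lost with summed replicates (adjusted p = 0.141). In untreated cells it had 13.5 to 15.2 CPM in KO samples, against 13.9 to 15.2 CPM in WT samples. The 95% interval of that difference was -0.11 to 0.12 on the log2 scale.

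Tlr4 did not pass the test in any condition. It had 112, 115, 116 and 119 CPM in KO cells with LPS, all above the 4 WT samples, with a log2 difference of 0.16 ± 0.06 and a 95% interval of 0.03 to 0.28 (adjusted p = 0.0505). This difference passed without WT LPS replicate 3 (adjusted p = 0.0388) and in a fit of only the groups compared (adjusted p = 0.00816). The intervals were -0.15 to 0.10 with zymosan and -0.06 to 0.19 untreated. Cd14, the co-receptor that passes LPS to TLR4, was lower in KO samples in each condition, with 649 ± 19.0 CPM in KO against 1150 ± 70.4 CPM in WT cells with zymosan (log2 difference -0.83 ± 0.07, adjusted p = 4.08e-09). Its differences with LPS and untreated were -0.76 ± 0.07 and -0.40 ± 0.07. Ly96, which encodes the LPS-binding subunit MD-2, was at 4.27 ± 0.498 CPM in KO against 7.58 ± 0.984 CPM in WT cells with LPS (log2 difference -0.83 ± 0.13, adjusted p = 1.88e-05). Its difference was -0.55 ± 0.13 with zymosan (adjusted p = 0.00416) and did not pass untreated (adjusted p = 0.338).

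Tlr3 had 35.6, 34.8, 47.0 and 47.2 CPM in KO cells with LPS, below all WT samples (log2 difference -0.76 ± 0.11, adjusted p = 1.2e-05). With zymosan it had 24.7, 23.9, 37.4 and 33.1 CPM in KO cells, which overlapped the WT samples. That difference, -0.32 ± 0.12, lay close to the threshold (adjusted p = 0.0493). It was lost without WT zymosan replicate 2, 3 or 4 or KO zymosan replicate 1 or 2, with adjusted p between 0.0779 and 0.202, and with summed replicates (adjusted p = 0.313). Within replicates 1 and 2 it was -0.51 and within replicates 3 and 4 it was -0.16. In untreated cells the interval was -0.51 to 0.18.

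Tlr7 was lower in KO cells with LPS, at 111 to 140.5 CPM against 169 to 197 CPM in WT cells (log2 difference -0.53 ± 0.12, adjusted p = 0.0019), and this call was lost with summed replicates (adjusted p = 0.0818). With zymosan and untreated it did not pass, with intervals of -0.42 to 0.09 and -0.42 to 0.11. Tlr8 and Tlr13 passed in no condition. Tlr8 lay within -0.24 to 0.14 and Tlr13 within -0.23 to 0.08 by the 95% intervals of the 3 conditions. With LPS, Tlr8 had 50.6 to 57.2 CPM in KO against 55.3 to 58.7 CPM in WT cells, and Tlr13 had 97.8 to 105.6 CPM in KO against 104.6 to 113.9 CPM in WT cells.

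Tlr9 was higher in KO samples with zymosan and without treatment, the opposite direction to Tlr2. It had 10.1, 11.2, 12.4 and 12.2 CPM in KO cells with zymosan, 13.1, 13.6, 12.9 and 12.5 CPM in KO cells with LPS and 5.71, 6.13, 6.17 and 7.03 CPM in KO untreated cells. With zymosan and untreated every KO sample lay above every WT sample, and with LPS the groups overlapped. The log2 difference was 0.72 ± 0.10 with zymosan (adjusted p = 4.93e-06), 0.22 ± 0.09 with LPS (adjusted p = 0.0689) and 0.46 ± 0.10 untreated (adjusted p = 0.00314). The LPS difference passed without WT LPS replicate 4, at 0.31 (adjusted p = 0.0144). Among replicates 1 and 2 the difference was 0.65 with zymosan and 0.32 untreated, and among replicates 3 and 4 it was 0.82 and 0.57.

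Markers of other cell types also differed between the labels, and their part in these receptor differences was not tested. Beside the marker counts here and in the next paragraph stand the shares of all genes called between the labels. These were 22.1% with zymosan (10.6% higher, 11.4% lower), 33.9% with LPS (15.6% higher, 18.2% lower) and 9.95% untreated (4.31% higher, 5.64% lower). All 7 tested eosinophil markers were lower in KO cells with LPS, and 6 of 7 with zymosan and untreated. Their summed level was 48.0 to 61.9 CPM in KO against 923 to 1251 CPM in WT cells with zymosan, 47.4 to 56.4 CPM in KO against 981 to 1050 CPM in WT cells with LPS, and 49.0 to 58.6 CPM in KO against 820 to 1101 CPM in WT untreated cells. Of 11 neutrophil markers, 5 were lower with zymosan and untreated, and 4 were higher and 4 lower with LPS, where the summed level was 1958 to 2221 CPM in KO against 1763 to 1912 CPM in WT cells. Of 8 monocyte and macrophage markers, 1 was higher and 4 were lower with zymosan, 1 was higher and 6 were lower with LPS, and 1 was higher and 2 were lower untreated. Their sums were 2314 to 2561 CPM in KO against 2767 to 2890 CPM in WT cells with zymosan and 2044 to 2096 CPM in KO against 2727 to 2863 CPM in WT cells with LPS, without overlap in either, and 2254 to 2567 CPM in KO against 2451 to 2650 CPM in WT untreated cells.

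For Tlr9, which B cells and plasmacytoid dendritic cells express strongly, the markers of these cells were set beside it. None of the 4 tested B cell markers differed between the labels in any condition, and the 6 summed to at most 2.99 CPM in any sample. Of 7 tested plasmacytoid dendritic cell markers, 2 were higher and 1 lower with zymosan, 1 was higher and 3 lower with LPS, and 3 were higher and none lower untreated. Their sums were 561 to 627 CPM in KO against 686.5 to 740.5 CPM in WT cells with zymosan, 744 to 769 CPM in KO against 968 to 1089 CPM in WT cells with LPS, and 144 to 174 CPM in KO against 147 to 175 CPM in WT untreated cells. Most of each sum was Bst2, which rose with both stimuli and had 499 ± 28.6 CPM in KO against 630.3 ± 23.9 CPM in WT cells with zymosan, so the sums do not describe the other markers. With zymosan, Tcf4 and Cox6a2 were the markers higher in KO cells, at 89.05 ± 4.01 CPM in KO against 78.9 ± 0.791 CPM in WT cells and 0.932 ± 0.144 CPM in KO against 0.303 ± 0.160 CPM in WT cells. Siglech, another of these markers, had 2 counts over the 4 KO samples and 3 over the 4 WT samples with zymosan, and 2 and 0 counts untreated. T and NK cell markers summed to less than 1 CPM in every sample. Of 6 tested mast cell and basophil markers, 1 was higher and 1 lower in KO cells with zymosan, 2 were higher and 1 lower with LPS, and none was higher and 2 were lower untreated. Of 5 tested markers of the cDC1 subset, 3 were higher and none lower with zymosan, 1 was higher and 1 lower with LPS, and 1 was higher and 1 lower untreated. In lists this short, the count with LPS is near the 33.9% of all genes called there. Of the 8 dendritic cell markers, 4 were higher in KO cells in each condition, Flt3 was lower in each, and Cd86 was also lower with zymosan.

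The interaction of label and stimulus tested whether the response itself differed, as the KO response minus the WT response. For zymosan only Tlr1 passed among the 9 receptors in the fit without a replicate block, with a difference of -0.50 ± 0.07 on the log2 scale (adjusted p = 0.000238), where 1.82% of all genes passed (0.973% higher, 0.846% lower). For LPS Tlr1 (-0.62 ± 0.06, adjusted p = 3.04e-06) and Tlr6 (-0.44 ± 0.08, adjusted p = 0.000962) passed, where 10.4% of all genes passed (4.61% higher, 5.84% lower). These values say that Tlr1 rose less in KO than in WT cells with either stimulus, and Tlr6 less with LPS. With summed replicates none of the 3 passed, at adjusted p = 0.465, 0.0534 and 0.193, with sizes of -0.50, -0.62 and -0.43. In that fit the interaction called 0 of all genes for zymosan and 5 for LPS.

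The LPS response of Tlr3 and of Tlr2 also had smaller values in KO cells without passing, at -0.60 ± 0.20 (95% interval -1.01 to -0.18, adjusted p = 0.0577) and -0.30 ± 0.10 (interval -0.51 to -0.09, adjusted p = 0.0622). DESeq2 called both, at adjusted p = 0.0147 and 0.0367. For Tlr2 the difference in the zymosan response was -0.31 ± 0.10 (adjusted p = 0.142). With a replicate block nested in label, which ties same-numbered samples of every condition, it passed at -0.30 ± 0.06 (adjusted p = 0.00474). That tie is not established in KO cells. Between their zymosan and untreated samples, different numbers correlated at up to 0.296 and same numbers at up to 0.205. For Tlr9 the difference in response was 0.27 with an interval of -0.02 to 0.56 with zymosan and -0.24 with an interval of -0.52 to 0.05 with LPS. The responses of Tlr4, Tlr8 and Tlr13 differed by less than 0.10 in either direction as estimated, with intervals that stayed between -0.27 and 0.27. Tlr7 had an interval of -0.38 to 0.36 for zymosan and -0.75 to -0.01 for LPS (adjusted p = 0.187).

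Replicates of a group were not alike for all receptors. Replicates 3 and 4 both lay above replicates 1 and 2 in all 6 groups for Tlr3 and Tlr7, which was so for 1.65% of all tested genes. It was so in 5 groups for Tlr2, Tlr6 and Tlr8 (3.91% of all tested genes) and in 3 groups for Tlr4 and Tlr13 (12.8%). For Tlr9 it was so in 2 groups (21.1%) and for Tlr1 in 1 group (27.3%). Within groups, over 24 samples, the deviations of log2 CPM from the group mean correlated at 0.88 between Tlr3 and Tlr7, 0.87 between Tlr7 and Tlr8, 0.84 between Tlr4 and Tlr13 and 0.81 between Tlr2 and Tlr7, and those of Tlr1 with any other receptor at -0.24 to 0.20. These samples share their replicate pairs, so the values describe the libraries.

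Genes after and around the receptors moved as follows. Of 68 genes in 7 lists of the pathway, 65 were tested, and in WT cells 45 were higher and 15 lower with zymosan and 41 higher and 17 lower with LPS, where 70.2% and 75.6% of all genes passed. Between the labels 8 were higher and 16 lower in KO cells with zymosan, 6 higher and 30 lower with LPS, and 5 higher and 4 lower untreated, where 22.1%, 33.9% and 9.95% of all genes passed. The LPS interaction was higher for 1 and lower for 16 of them, where 10.4% of all genes passed, and the zymosan interaction lower for 2, where 1.82% passed. The median log2 change of the 65 in WT cells was 0.47 with zymosan and 0.56 with LPS, against -0.01 and -0.04 over all genes. Their median log2 difference between KO and WT cells was -0.05 with zymosan, -0.12 with LPS and -0.00 untreated, against -0.00, 0.01 and 0.00 over all genes.

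By list, 4 of 5 tested TLR adaptors were lower and 1 higher in KO cells with LPS, a comparison in which 15.6% of all genes were higher and 18.2% lower. Myd88, the adaptor of every receptor here but TLR3, had a log2 difference of -0.36 ± 0.07 (adjusted p = 0.000254), and Ticam2, the bridging adaptor of TLR4, was the adaptor higher in untreated KO cells, at 0.28 ± 0.04 (adjusted p = 6.18e-05). Of 6 genes for LPS recognition and related co-receptors, 4 were lower with LPS. Of 14 genes for folding, transport and processing, 1 was higher and 4 lower with LPS, a share near that of all genes, led by the cathepsin gene Ctsk at -1.23 ± 0.23 (adjusted p = 0.000192). Of 15 kinases and ubiquitin ligases, 1 was higher and 6 lower, led by Peli1 at -0.49 ± 0.07 (adjusted p = 4.25e-06), and of 10 inhibitors 5 were lower, led by Socs1 at -0.51 ± 0.12 (adjusted p = 0.00205). Of 10 transcription factors 1 was higher and 5 lower, led by Irf7, a factor that drives type I interferon genes, at -0.68 ± 0.15 (adjusted p = 0.000706). Irf7 also had the largest rise of all listed genes in WT cells, 4.53 ± 0.17 with zymosan and 5.49 ± 0.18 with LPS on the log2 scale.

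Hsp90b1, the chaperone gp96 that folds most Toll-like receptors, had 1109 ± 85.7 CPM in KO against 1267 ± 51.9 CPM in WT cells with LPS, a log2 difference of -0.19 ± 0.05 (adjusted p = 0.00633). It did not pass with zymosan (adjusted p = 0.544) or untreated (adjusted p = 0.693). Unc93b1, which carries the endosomal receptors out of the endoplasmic reticulum, had 432 ± 14.7 CPM in KO against 389 ± 6.52 CPM in WT untreated cells (log2 difference 0.15 ± 0.04, adjusted p = 0.0227), and did not pass with zymosan (adjusted p = 0.063) or LPS (adjusted p = 0.66). In WT cells Unc93b1 rose with both stimuli, by 0.33 ± 0.04 with zymosan and 0.56 ± 0.04 with LPS. Clec7a, which encodes dectin-1, rose in WT cells with zymosan (0.52 ± 0.12, adjusted p = 0.000346), and its change with LPS was 0.04 ± 0.12 (adjusted p = 0.746). Of the 5 tested genes for other zymosan receptors, 1 was higher and 1 lower in KO cells with zymosan, where 22.1% of all genes passed. With LPS 2 were higher and 2 lower, where 33.9% of all genes passed. Untreated 0 passed, where 9.95% of all genes did. Clec7a passed in none of the 3 conditions.

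For each receptor, the genes with the most similar pattern were those whose log2 CPM correlated best with it over the 24 samples, among the 9059 named genes averaging 5 CPM or more. The samples fall into stimulated and untreated ones, so high values are common and are given as a description. Nearest to Tlr1 were U90926 (Pearson r = 0.996), Nfkbib, which encodes an inhibitor of NF-κB (0.995), and Rbms2 (0.995), and nearest to Tlr2 were the C-type lectin gene Clec4d (0.99), Serpinb2 (0.989) and the formyl peptide receptor gene Fpr1 (0.989). Tlr6 was nearest to Il10rb, a chain of the IL-10 receptor (0.993), and to the MHC class I genes H2-K1 (0.991) and H2-Q4 (0.99), and Tlr4 to Fam210a (0.963), Nupl1 (0.959) and Lin7c (0.957). Of the endosomal receptors, Tlr3 was nearest to Sbds, Aftph and Tor1aip2 (0.998 each), Tlr7 to Lgals8 (0.991), Tor1aip1 (0.991) and P2ry14 (0.99), and Tlr8 to Coa5 (0.969), Kat2b (0.965) and Stx3 (0.964). Tlr9 was nearest to Slc6a6 (0.979), Prkcd (0.952) and Kdr (0.934), and Tlr13 to Dhx15 (0.967), Zranb3 (0.965) and Siglecf (0.963), which is also among the eosinophil markers. As a list, the 7 tested eosinophil markers had median log2 differences of KO over WT of -3.97 with zymosan, -3.89 with LPS and -4.49 untreated. Of the 7, 6 passed with zymosan and untreated. These medians describe the list and not Siglecf, whose own differences are not given here. The part of eosinophils in the level of Tlr13 was not tested. Tlr13 did not pass between the labels in any of these conditions.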

How the data were processed

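The authors' deposited table holds 1 whole-number count per Ensembl gene and sample, and the submitters' processing notes name RSEM 1.2.31, Bowtie2, DESeq2 and the mouse build mm10, with roles not given in the sources used here. The plan assumed counts with decimals to be rounded, and the counts were used unchanged. RSEM shares out reads that fit several genes. GENCODE M21 (GRCm38) named 37570 of 38887 genes and gave lengths. CPM used library totals scaled by TMM, and log2 CPM a prior count of 2. The TMM factors were 1.144 to 1.189 in untreated and 0.8801 to 0.9826 in stimulated samples. Small log2 changes with a stimulus therefore depend on this scaling in size, and that of Tlr4 with zymosan in sign.

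An edgeR 4.0.16 quasi-likelihood model (R 4.3.3) took all 24 samples, with 6 group means, after filterByExpr, for 11 contrasts, with p-values adjusted by Benjamini-Hochberg over 14188 genes. Values are log2 ± SE, called at an adjusted p under 0.05. The procedure was tested on simulated data. Alternatives were DESeq2 1.42.0, its size factors, no filter, a fit limited to the groups compared, a replicate block, summed replicates and each library left out. The members, gene lists and summed replicates were chosen with earlier results of these data known. Named were all 9 members, the leading called gene of a list, genes with a direct role for a receptor, and the 3 most correlated genes.

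Same-numbered samples deviated together (every correlation over 0.1) only between zymosan and untreated samples of one label, at 0.125 to 0.205 in KO and 0.151 to 0.247 in WT. Different-numbered samples of these groups correlated at -0.247 to 0.296 in KO and -0.203 to 0.175 in WT, so in KO the numbers do not clearly mark pairs. With the numbers read as pairs, in a block that also held the LPS samples, the counts of called receptors stayed at 8 and 9. That of the zymosan interaction rose to 2, against 1, adding Tlr2.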

Additional observations from a re-analysis of the deposited data

Results flagged for a closer look

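The response of Tlr1 differed between KO and WT cells by the interaction test, by -0.62 on the log2 scale with LPS (SE 0.06, edgeR adjusted p = 3.04e-06) and by -0.50 with zymosan (SE 0.07, edgeR adjusted p = 0.000238). With LPS, Tlr1 rose by 2.28 in KO cells and by 2.91 in WT cells, and with zymosan by 1.62 in KO cells and by 2.12 in WT cells. The difference had the same sign in all 16 fits that left out a library, between -0.64 and -0.59 with LPS and between -0.52 and -0.46 with zymosan. With summed replicates neither passed (adjusted p = 0.0534 and 0.465). The LPS response of Tlr6 differed by -0.44 (SE 0.08, edgeR adjusted p = 0.000962), with rises of 1.09 in KO cells and 1.52 in WT cells, and did not pass with summed replicates (adjusted p = 0.193). Tlr1 and Tlr6 share part of their transcript sequence, and the part of shared reads in these values was not tested.

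KO untreated replicate 2 had a Tlr1 level of 9.42 CPM, apart from the other 3 samples of its group at 8.59 to 8.63 CPM. Of 54 groups of 4 examined for such a sample this was the only one, and chance alone marks about 5% of groups. Without each untreated KO or WT library in turn the untreated difference of Tlr1 stayed between 0.22 and 0.27 on the log2 scale and past the threshold.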

How the results depend on the processing

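DESeq2 as the test, its size factors, no filter and a fit of only the groups compared kept the direction of every receptor's value, except that in the last of these Tlr6 untreated between labels came to -0.00092 and the zymosan interaction of Tlr7 to 0.0075, both far from the threshold. The Tlr3 difference between labels with zymosan lost its call with DESeq2 size factors (adjusted p = 0.0544) and in the fit of only the groups compared (adjusted p = 0.103), where Tlr13 with zymosan in KO cells also did (adjusted p = 0.0828). DESeq2 raised the receptors called in the LPS interaction to 4, against 2. The replicate block, shared or nested in label, called 5 receptors in the LPS interaction and 2 in the zymosan interaction, against 2 and 1, adding Tlr2, Tlr3 and Tlr7 to the LPS interaction and Tlr2 to the zymosan one, and it changed the count of no other comparison by over 1.5 times. Replicates 3 and 4 lay above replicates 1 and 2 in all 6 groups for Tlr3 and Tlr7, as for 1.65% of all tested genes. Outside the zymosan and untreated samples of one label, same-numbered samples did not all correlate over 0.1, and pairing by number was not established. Nor was the pairing of KO zymosan and untreated samples by number established. Summing replicates left 1 receptor called between labels untreated, 3 with zymosan, and 0 in each interaction. It leaves 2 values per group, and it left 418 of all genes called between labels untreated, 964 with zymosan and 1987 with LPS, against 1411, 3134 and 4805. In it Tlr6 untreated between labels came to -0.00061 and the zymosan interaction of Tlr8 to -0.010. Leaving out each library gave 2 to 4 receptors in the LPS interaction, 4 without KO LPS replicate 3 or 4, and 1 in the zymosan interaction throughout. Values that changed sign without a library had not passed the test: between labels they ranged over -0.020 to 0.037 for Tlr6 and -0.13 to 0.038 for Tlr8 untreated, and over -0.056 to 0.018 for Tlr4 and -0.11 to 0.013 for Tlr8 with zymosan. Zymosan against LPS in KO cells ranged over -0.18 to 0.020 for Tlr7. The zymosan interaction ranged over -0.13 to 0.071 for Tlr7, -0.071 to 0.094 for Tlr8 and -0.084 to 0.020 for Tlr13, and the LPS interaction over -0.11 to 0.053 for Tlr8 and -0.090 to 8.3e-05 for Tlr13. Apart from the construction named for summed replicates, the cause of each change was not tested. Tlr9 in stimulated cells and Tlr3 in untreated cells had the fewest counts of the 9 receptors.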

Other observations

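The 3 other mouse Toll-like receptor genes of the table, Tlr5, Tlr11 and Tlr12, were detected at about 1 CPM or less, and all passed the filter on low counts. Tlr5, the flagellin receptor, had 10 counts over the 4 KO samples and 8 over the 4 WT samples with zymosan, 5 and 7 with LPS, and 68 and 67 untreated. It fell with both stimuli in both labels (edgeR adjusted p between 2.09e-05 and 0.000473). Tlr12, which with TLR11 senses profilin of apicomplexan parasites in the mouse, also fell with both stimuli, to 40 counts in KO and 67 in WT samples with zymosan and 28 in KO and 37 in WT samples with LPS, against 109 in KO and 197 in WT untreated samples. In untreated cells it was lower in KO samples, at 0.550 ± 0.124 CPM against 1.02 ± 0.103 CPM in WT samples (log2 difference -0.89 ± 0.23, adjusted p = 0.00964).

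Tlr11 fell with zymosan in KO cells (log2 change -0.50 ± 0.21, adjusted p = 0.0442) and in WT cells (-1.13 ± 0.24, adjusted p = 0.00017), and did not pass with LPS in either (adjusted p = 0.383 and 0.35). With zymosan it was higher in KO samples, at 0.855 ± 0.150 CPM against 0.434 ± 0.104 CPM in WT samples (log2 difference 0.96 ± 0.25, adjusted p = 0.00678). The difference of its zymosan response between labels was 0.64 ± 0.32 and did not pass (adjusted p = 0.417).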
